A study of Moesziomyces aphidis with 9 samples.

Results

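The genes described here fell when soybean oil was added to glucose cultures of the fungus Moesziomyces aphidis and were already reduced in 1 of the 3 glucose libraries, replicate 3. They number 74 of the 6952 genes in the files. They were selected on RPKM values, read counts scaled to gene length and library size. A member had a mean of at least 10 RPKM over 6 libraries. Its log2 ratio of the soybean oil mean to the glucose mean, with 1 RPKM added to both, was at most -2. Its share was at least 0.33, where the share is the drop from the mean of glucose replicates 1 and 2 to glucose replicate 3, divided by the drop from that mean to the soybean oil mean. A share of 0 means that replicate 3 stood level with replicates 1 and 2, and a share of 1 that it stood at the oil mean. Genes in runs of at least 3 consecutive identifiers were left out where each gene of the run had a mean of at least 1 RPKM, a log2 ratio of at most -1 and its highest oil library below its lowest glucose library. The fall with oil and the low value in glucose replicate 3 therefore chose the members, and both are given below as descriptions.

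All libraries came from strain DSM70725 of this species, also called Pseudozyma aphidis, grown at 30 °C for 114 h in a medium of yeast extract with 40 g/l glucose. The oil cultures held 70 g/l soybean oil besides the glucose, so no culture was without glucose at the start. The labels call the glucose cells not induced blastospores and the oil cells soybean oil induced filaments, so medium and cell form cannot be told apart. Each medium had 3 unstranded libraries of 50 bp single reads, with 8108888 to 11100455 reads per library. There was 1 stranded library per medium with the number of replicate 1, and 1 paired-end library of 95 bp reads with the number of soybean oil replicate 2.

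Moesziomyces aphidis is a relative of the smut fungi that grows as budding cells or filaments and secretes mannosylerythritol lipids, surfactants built from a sugar part and fatty acid chains. Plant oil is a usual feedstock for them, because its fatty acids can serve both as carbon source and as building blocks. In many fungi glucose represses genes for the use of other carbon sources, while fatty acids induce their own breakdown in peroxisomes and mitochondria. The files give identifiers alone and no gene names or products, so no member can be assigned to these pathways here. In RNA from whole cultures, fewer cells of a type and less RNA per cell cannot be told apart.

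Libraries stood apart before any member was considered. Over the genes of at least 10 RPKM, glucose replicate 3 lay at a median log2 difference of -0.14 from the mean of replicates 1 and 2, with quartiles of -0.40 and 0.12, and it was the lowest glucose library in 58.8% of 5621 genes. No second library of glucose replicate 3 was analysed here, so its values rest on 1 library. The paired-end library carries the label of soybean oil replicate 2 but differed from that replicate's 50 bp library. Genes risen at least 4-fold with oil in the 50 bp libraries (112 genes) were lower in it by a median log2 difference of -0.98. Genes that had changed by at most 0.5 on that scale (3256 genes) were higher by 0.22. The risen genes were chosen in part for high values in the 50 bp library of oil replicate 2. The part of that choice in their difference was not tested. The sample titles mark the replicates with the letters br, which may stand for biological replicate. Nothing else in the labels says whether the replicates came from separate cultures, so tests measure the spread between these samples.

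The members lost most of their reads with oil, and a large part of that loss was present in glucose replicate 3. They took 3.45% of the reads in genes in glucose replicate 1 (95% Wilson interval 3.44 to 3.46) and 3.42% in replicate 2 (3.40 to 3.43), but 1.69% in replicate 3 (1.68 to 1.70). With oil they took 0.140%, 0.167% and 0.140%, a mean of 0.149% ± 0.0157 (SD, n = 3). The glucose mean was 2.85% ± 1.0 (SD, n = 3) with replicate 3, and 3.43% over replicates 1 and 2 alone. Every glucose library was above every oil library, and replicate 3 lay between. Intervals cover counting error only.

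**Figure D1:**
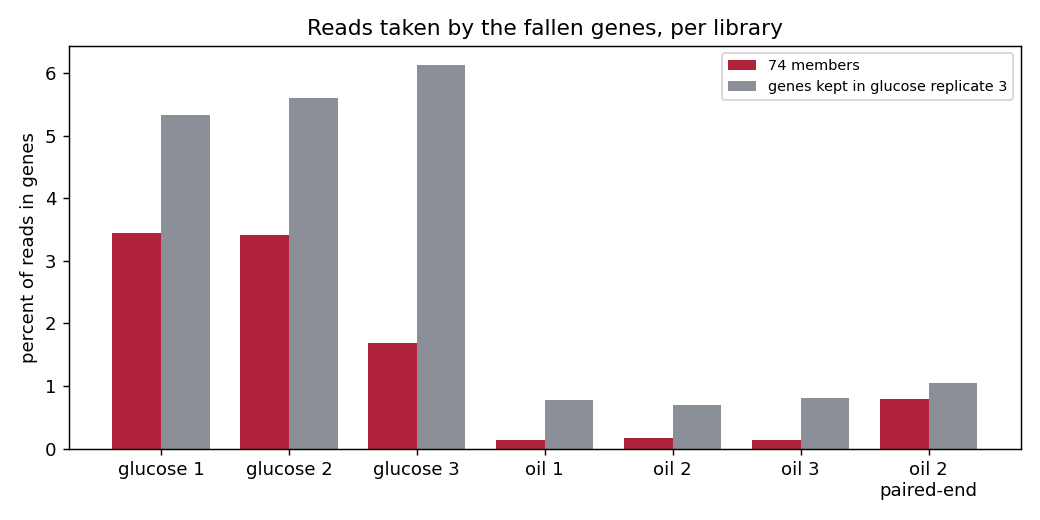
Percent of the reads in genes (vertical axis, from 0) taken by the 74 members and by the 63 fallen genes kept in glucose replicate 3, for each of the 7 unstranded libraries. The members drop from 3.45% and 3.42% to 1.69% in glucose replicate 3, whereas the other genes stand at 6.13% there, and the paired-end oil library stands above the 3 oil libraries for both sets.

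Fallen genes kept in glucose replicate 3 are the natural counterpart, since they met the same limits on level and fold and had a share under 0.33. There were 63 of them, and they took 5.33%, 5.60% and 6.13% of the reads in the 3 glucose libraries. The highest of these values was that of replicate 3. With oil they took 0.763% ± 0.0591 (SD, n = 3). The limit on the share sets this contrast between the kept genes and the members.

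A few genes dominated the reads. The 4 most abundant members held 51.1% and 52.5% of the members' reads in glucose replicates 1 and 2, and 48.5% in replicate 3. Without them the other members still took 1.69% and 1.62% in replicates 1 and 2 and 0.872% in replicate 3, against 0.129% to 0.161% with oil. Since each member was chosen for a low value in replicate 3, this shows how the reads divide and is no test.

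In glucose replicates 1 and 2 the members spanned a wide range of levels. Their mean over these libraries ran from 20.9 to 6126 RPKM, with a median of 72.8. At least 1000 RPKM was reached by 4 members, 100 to 1000 RPKM by 28 and less than 100 RPKM by 42. In glucose replicate 3 the median was 39.0 RPKM, and in the oil libraries 5.11, 6.58 and 5.57 RPKM. The medians keep the same order as the reads, with replicate 3 between the other glucose libraries and the oil libraries.

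**Figure D2:**
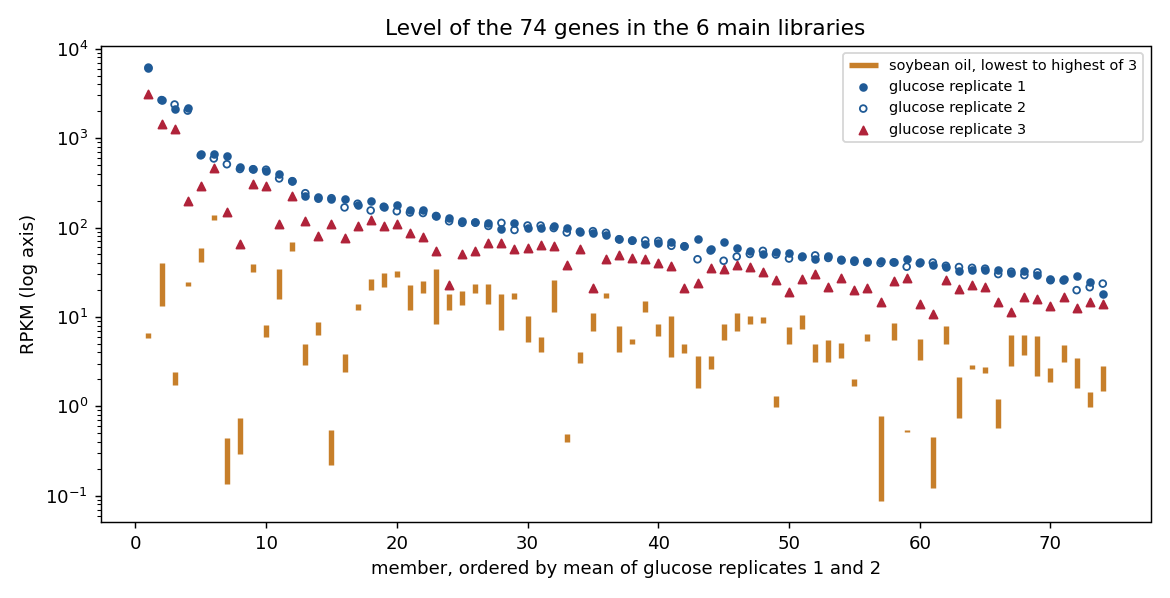
RPKM on a log axis for each of the 74 members, ordered by the mean of glucose replicates 1 and 2. Circles are glucose replicates 1 and 2, triangles glucose replicate 3, and bars run from the lowest to the highest of the 3 oil libraries. The triangles lie between the circles and the bars in all 74 members.

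PaG_03517 was the most abundant member. It stood at 6100, 6152 and 3103 RPKM in glucose replicates 1 to 3 and at 6.09, 5.84 and 6.62 RPKM in the oil replicates. Replicate 3 was thus at 50.6% of the mean of the other glucose libraries, while all oil libraries were alike and far below. The limma fit over all genes gave a log2 fold change of -9.41 (SE 0.25), and the fit without glucose replicate 3 gave -9.74. Its share was 0.49, close to the median of the members.

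PaG_03756 had the highest share, 0.92. Its glucose values were 128, 118 and 22.9 RPKM, and its oil values 12.1, 18.0 and 12.6 RPKM. In glucose replicate 3 it was nearer to the highest oil library than to either other glucose library, though still above all oil libraries. The fitted log2 fold change was -2.26 (SE 0.57), and -3.05 without glucose replicate 3. Of the members named or described singly here, it had the smallest gap between replicate 3 and the oil libraries on the RPKM scale.

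Other abundant members showed how unequal the reduction was. The member ranked 2 by glucose level stood at 2646, 2663 and 1445 RPKM on glucose and at 40.4, 13.2 and 15.9 RPKM with oil, a share of 0.46. The member ranked 4 stood at 2177, 2031 and 198 RPKM on glucose and at 22.4, 23.8 and 24.5 RPKM with oil, a share of 0.92. Both had nearly equal values in glucose replicates 1 and 2, yet the first kept 54.5% of that level in replicate 3 and the second 9.40%. Their levels with oil were of similar size.

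Some members were close to silent with oil and far from silent in glucose replicate 3. The mean with oil was under 1 RPKM in 8 members. Of these, the member ranked 7 by glucose level stood at 637, 510 and 149 RPKM on glucose and at 0.446, 0.136 and 0.374 RPKM with oil. The member ranked 8 stood at 474, 452 and 66.0 RPKM on glucose and at 0.296, 0.747 and 0.743 RPKM with oil. Their shares were 0.74 and 0.86, and in both the lowest glucose value was far above the highest oil value.

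The member ranked 6 lay near the other end of the group. It stood at 658, 592 and 458 RPKM on glucose and at 139.5, 137.3 and 119.9 RPKM with oil, with a share of 0.34. It had the highest mean with oil of all members, 132 ± 10.7 RPKM (SD, n = 3). An oil mean of at least 10 RPKM was found in 23 members in all.

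The shares of the members ran from 0.34 to 0.92, with a median of 0.49 and quartiles of 0.40 and 0.60. There were 40 members under 0.5, 21 from 0.5 to under 0.65 and 13 of 0.65 or more, 4 of these at 0.8 or more. The widest step in the list lay between 0.75 and 0.85, below those 4. The 4 members just inside the limit had shares of 0.338, 0.339, 0.340 and 0.346, and the 4 genes just outside 0.313, 0.314, 0.317 and 0.326. There was no wide step at the limit, and genes on its sides differed little. In 23 members (31.1%) replicate 3 was below 50% of the mean of replicates 1 and 2, against 2.56% of the genes of at least 10 RPKM. The limit on the share bars kept genes from such a value. The median log2 difference of replicate 3 from that mean was -0.82 in the members and -0.03 in the kept genes, and the rule sets this difference.

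**Figure D3:**
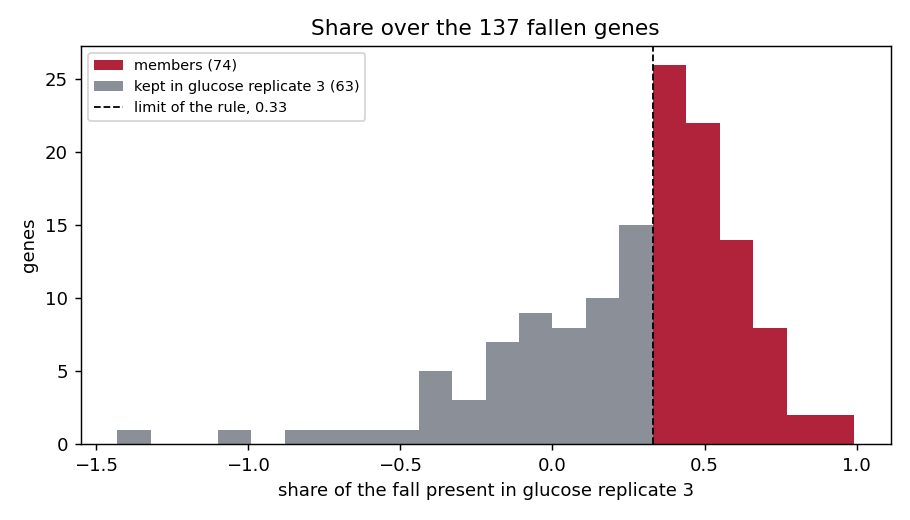
Number of fallen genes (vertical axis) by the share of the fall present in glucose replicate 3 (horizontal axis, steps of 0.11), for the 74 members and the 63 kept genes. The dashed line is the limit of 0.33, on both sides of which genes are numerous, and shares below 0 are genes higher in replicate 3 than in replicates 1 and 2.

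The size of the fall with oil spanned a wide range. The log2 ratio used by the rule ran from -9.48 to -2.0, with a median of -2.90. It was at most -4 in 17 members and above -3 in 39. In the kept genes the median was -2.51. Against glucose replicates 1 and 2 alone the medians were -3.17 for the members and -2.47 for the kept genes. By limma on log2(RPKM + 1), 74 of 74 members and 63 of 63 kept genes were at least 2-fold lower with oil at an adjusted p under 0.05, against 12.2% of all 6486 tested genes. In 74 of 74 members every oil library was below every glucose library, against 32.6% of tested genes. The rule used this contrast, so nothing is read from these counts. Without glucose replicate 3 the fit called 74 members. When paired-end values were substituted for the 50 bp values of soybean oil replicate 2, the fit called 31 members. The fitted fall was then still at least 2-fold in 73.

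Share and fall were only loosely related across the members. Pearson's r of the share with the log2 ratio was -0.16 and Spearman's rho -0.11 over 74 genes, which come from the same 6 libraries and are not replicates. With the glucose level the values were 0.05 and 0.09, and with gene length -0.08 and -0.13. Members of 0.65 or more had a median glucose level of 115 RPKM, those from 0.5 to under 0.65 one of 51.6 RPKM and those under 0.5 one of 72.8 RPKM. Neither weak nor abundant members were thus set apart by their share.

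Glucose replicates 1 and 2 lay about as close to each other in the members as in other genes. Their median absolute log2 difference was 0.084, and 0.085 over all genes of at least 10 RPKM. They were within 1.25-fold in 69 of 74 members (93.2%), against 95% of those genes. Replicate 1 was above replicate 2 in 44 members (59.5%), against 49.5% of all genes of at least 10 RPKM. A difference over 1.5-fold was seen in 2 members, against 0.925% of those genes. The first of these, ranked 43, stood at 75.03 and 44.1 RPKM in replicates 1 and 2, and the second, ranked 45, at 69.3 and 42.5 RPKM. Both were short, at 775 and 478 bp, and rested on 579 and 310 reads in the first case and 330 and 184 in the second. The part of length or read number in these differences was not tested.

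The oil libraries differed somewhat more in the members than elsewhere. The coefficient of variation over the 3 oil libraries had a median of 19.9% in the members, 16.2% in the kept genes and 10.9% in all genes of at least 10 RPKM. The oil values of members rest on few reads, with medians of 90.5, 134.5 and 78 reads in oil replicates 1 to 3 and lowest values of 1, 2 and 1. Replicate 2 was the highest oil library in 48 members (64.9%), against 44.7% of all genes of at least 10 RPKM, and replicate 1 the lowest in 39 (52.7%), against 53.2%. In the kept genes replicate 2 was highest in 27 of 63 (42.9%). The median log2 difference of oil replicate 2 from replicate 1 was 0.23 in the members, 0.06 in the kept genes and 0.12 in all genes of at least 10 RPKM. The difference between members and kept genes was not tested.

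The stranded pair offers libraries that the rule did not use, although they carry the number of replicate 1, whose other libraries it did use. All members were lower with oil in it: 74 of 74, and 63 of 63 kept genes, against 67.6% of the genes of at least 10 RPKM. At least 4-fold lower were 68 members and 54 kept genes, against 4.25% of those genes. The median log2 difference was -3.41 in the members, with quartiles of -4.17 and -2.85, -2.75 in the kept genes and -0.30 in all genes of at least 10 RPKM. With 1 library per medium there is no replicate check, and no stranded library of glucose replicate 3 was analysed here.

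PaG_03517 stood at 2940 RPKM in the stranded glucose library and at 12.5 RPKM in the stranded oil library. PaG_03756 stood at 62.96 and 5.56 RPKM. The strongest fall of the members in this pair was in the member ranked 3, the identifier just below PaG_03517, from 1224 to 2.31 RPKM. The weakest was in the member ranked 6, from 18.8 to 7.65 RPKM. The latter also had the widest gap between preparations on the log2 scale, since its unstranded glucose library of the same number held 658 RPKM. Over the members the stranded glucose value was lower than the unstranded one by a median of -0.56 on the log2 scale, and over all genes of at least 10 RPKM by -0.38.

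The paired-end library gave the members a different picture from the 50 bp oil libraries. It held more of them: 0.787% of its reads in genes (95% Wilson interval 0.784 to 0.790), more than the 0.140% to 0.167% of the 50 bp oil libraries and less than the 1.69% of glucose replicate 3. In 66 of 74 members (89.2%) it was above the highest 50 bp oil library, against 61.1% of the genes of at least 10 RPKM, and in 49 of 63 kept genes (77.8%). It was at least 2-fold above the 50 bp library of the same number in 59 members (79.7%), against 12.7% of those genes, and at least 4-fold above it in 33 members (44.6%), against 2.22%. In the kept genes the last 2 counts were 38 (60.3%) and 19 (30.2%). The members were chosen in part for low values in that 50 bp library. Without that library the rule found 87 genes, 71 of them members. The part of the choice in this difference was not tested.

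On the log2 scale the paired-end library exceeded the 50 bp library of oil replicate 2 by a median of 1.91 in the members, with quartiles of 1.27 and 2.55. The median was 1.38 in the kept genes and 0.25 in all genes of at least 10 RPKM. Within the members it was 1.87 below a share of 0.5, 1.77 from 0.5 to under 0.65 and 2.23 at 0.65 or more. The correlation with the share was 0.13 (Spearman's rho 0.14) and that with gene length -0.04 (rho -0.04) over 74 genes. The library differs from the others in read length and pairing as well, and the part of these in the result was not tested.

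**Figure D4:**
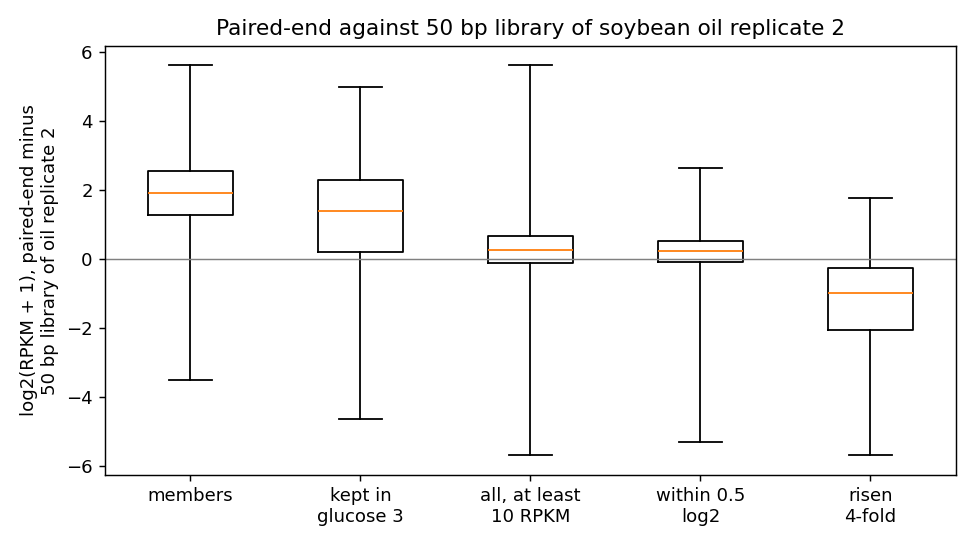
Difference of log2(RPKM + 1) between the paired-end and the 50 bp library of soybean oil replicate 2, for the 74 members, the 63 kept genes, all 5621 genes of at least 10 RPKM, the 3256 genes changed by at most 0.5 and the 112 genes risen at least 4-fold. Lines in the boxes are medians, boxes run from quartile to quartile and whiskers to the lowest and highest gene. The members' median is 1.91 and that of the risen genes -0.98.

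Single members ranged from glucose-like to oil-like in the paired-end library. The member ranked 16 stood at 3.82, 2.86 and 2.45 RPKM in the 50 bp oil libraries and at 187 RPKM in the paired-end library, on 7435 reads. Its glucose values were 207, 168 and 75.9 RPKM, so the paired-end value fell among those of replicates 1 and 2. The member ranked 11 stood at 357 RPKM there, against 15.7, 34.05 and 17.8 RPKM in the 50 bp oil libraries and 396, 354 and 111 RPKM on glucose. The member ranked 2 reached 311 RPKM, which was above its oil values and below all its glucose values. The member ranked 7, close to silent in the 50 bp oil libraries, reached 50.1 RPKM on 2088 reads.

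Above the 50 bp oil libraries and not above glucose replicate 3 lay 35 members (47.3%), against 36 kept genes (57.1%) and 10.5% of the genes of at least 10 RPKM. Above replicate 3 and not above both other glucose libraries lay 24 members (32.4%), against 2 kept genes (3.17%) and 11.8% of the genes of at least 10 RPKM. Above glucose replicate 3 were 31 of 74 members (41.9%), against 13 of 63 kept genes (20.6%) and 69.3% of the genes of at least 10 RPKM. The rule chose genes high on glucose and low with oil, and chose the members for a low replicate 3. The part of this choice in the order of these percentages was not tested, and nothing is read from it. The 7 members above all 6 libraries (9.46%) compare with 11 kept genes (17.5%) and 43.2% of all genes of at least 10 RPKM.

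The 8 other members did not exceed the 50 bp oil libraries, and 6 of them were below all 3, against 23.3% of the genes of at least 10 RPKM. PaG_03517 was among them at 3.23 RPKM on 110 reads, and so was its neighbour ranked 3 at 0.219 RPKM on 11 reads. The member ranked 26 stood at 1.14 RPKM, where the 50 bp oil libraries gave 18.7, 23.5 and 21.2 RPKM. The member ranked 66, at 516 bp one of the shorter ones, had 0 reads in it, which allows up to 3 reads. The most abundant glucose transcript of the group and the identifier next to it were thus no higher in the paired-end library than in the 50 bp oil libraries, while most members were.

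Several members sat next to each other by identifier. Consecutive identifiers formed 7 pairs with 14 members, and longer runs had been left out by the rule. No source used here says whether consecutive numbers mean neighbouring genes on a scaffold, and without strand or positions reads shared between adjacent genes cannot be told apart. Shares within a pair were close in part: they differed by 0.002 to 0.18, with a median of 0.05, whereas the median over all pairs that the 74 members can form was 0.13. Members in pairs had a median share of 0.68 and the other 60 members one of 0.46. A share of at least 0.65 was found in 8 of the 14 and in 5 of the 60. The rule used the share to choose the members and left out longer runs. These values are thus descriptions, and the difference was not tested.

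**Figure D5:**
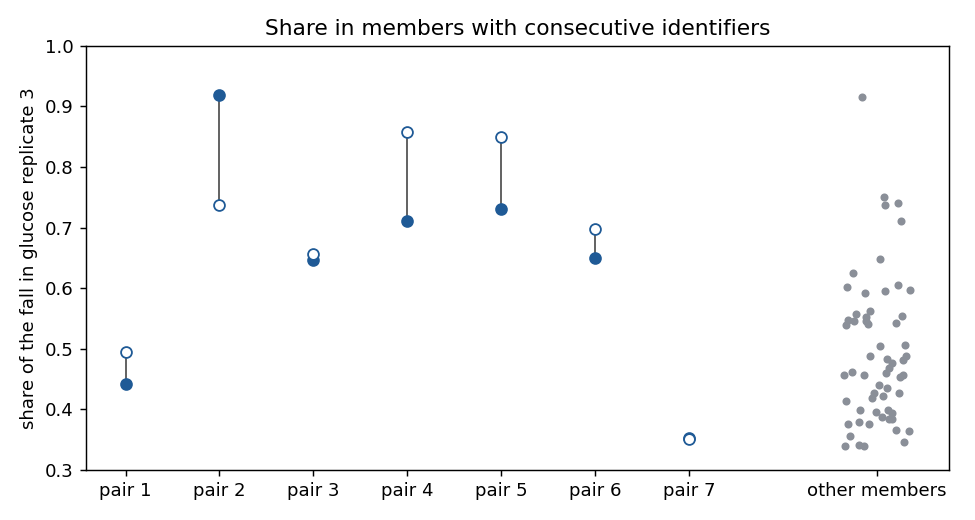
Share of the fall present in glucose replicate 3 for the members of the 7 pairs with consecutive identifiers (filled circle the lower, open circle the higher identifier, joined by a line) and for the other 60 members (grey, spread sideways at random). The shares run from 0.35 in pair 7 to 0.92 in pair 2, and pairs 2 to 6 lie at or above 0.65 after rounding.

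PaG_03517 belonged to the first pair, with shares of 0.44 and 0.49 and log2 ratios of -9.31 and -9.48, the 2 strongest falls of all members. Its neighbour stood at 2107, 2375 and 1252 RPKM on glucose and at 1.73, 1.92 and 2.40 RPKM with oil. PaG_03756 belonged to the second pair, with shares of 0.92 and 0.74 and log2 ratios of -2.57 and -2.32. The third pair differed widely in fall while having similar shares: its log2 ratios were -4.36 and -2.42 and its shares 0.65 and 0.66. The fourth pair differed in both. Its log2 ratios were -3.19 and -7.70, with shares of 0.71 and 0.86 and glucose levels of 61.7 and 463 RPKM. The paired-end library was above the 50 bp library of oil replicate 2 in both members of pairs 2 to 7 and below it in both members of the first.

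The genes beside the members by identifier and not members themselves were counted as well, although the rule lowers this count by leaving out runs of falling neighbours. There were 128 such genes, and 116 were tested. At least 2-fold lower by limma were 13 of these (11.2%), against 12.2% of all tested genes. The 14 members that sat next to another member, all at least 2-fold lower by limma, are not in this count. Their median log2 ratio of oil to glucose was -0.12. The median log2 difference of glucose replicate 3 from replicates 1 and 2 was -0.29 in them and -0.17 in all tested genes.

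Gene length did not set the members apart by its median. It was 1601 bp in the members, with quartiles of 1124.5 and 2207.75, 1810 bp in the kept genes and 1723 bp in all genes of at least 10 RPKM. The shortest member had 310 bp and the longest 7750 bp, and both had a share of 0.54 or 0.55. The lengths were worked out from the RPKM values. Identifiers above 10000, a separate number series, were carried by 10 members (13.5%), 9 kept genes (14.3%) and 14.2% of all genes of at least 10 RPKM.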

How the data were processed

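The deposited gene files hold RPKM values made by the authors. Reads were aligned with TopHat 1.4.1 per the submitters' processing notes, and no source used here names the counting tool, annotation or build. In the 7 unstranded libraries, RPKM values were ratios of whole reads to whole lengths, so reads, lengths and totals were worked out for 6899 of 6899 genes with a read (tolerance 1e-05 read). The procedure was tested on simulated data. Deposited stranded values have none under 1, with 155 (glucose) and 282 (oil) genes at exactly 1, and 1 was subtracted. The junction lists were not used.

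Oil and glucose were compared with limma 3.58.1 (R 4.3.3, intensity trend) on log2(RPKM + 1) for the 6486 genes averaging 1 RPKM or more, with Benjamini-Hochberg adjustment, and the fit was tested on simulated reads. Level comparisons with single libraries used 5621 genes of at least 10 RPKM. The members and lists were chosen with earlier results of these data known. With no gene names, 2 members are given by identifier, those with the highest glucose level and the highest share. Lists of pathway genes could not be applied. Ranks order members by the mean of glucose replicates 1 and 2. The main fit did not pair samples by replicate number. Other scalings, filters, pseudocounts, limits of the rule and left-out libraries were tried.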

Additional observations from a re-analysis of the deposited data

Results flagged for a closer look

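In the paired-end soybean oil library, which entered no group of the main comparison, 7 members stood above all 3 glucose libraries, and this is what singled them out. The member ranked 23 by glucose level stood at 742 RPKM on 36963 reads, against 134, 135 and 54.0 RPKM on glucose and 8.28, 34.4 and 21.0 RPKM in the 50 bp oil libraries. The other 6, ranked 32, 41, 51, 58, 62 and 52, stood at 135, 89.4, 66.9, 55.0, 53.8 and 49.8 RPKM. No test across replicates was possible with 1 such library. Of all genes of at least 10 RPKM, 43.2% were above the 6 main libraries in it. These 7 were chosen after their values were seen.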

How the results depend on the processing

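The number of members followed the limits of the rule and the scaling of the libraries. It was 34 with a share of at least 0.5 and 237 with a log2 ratio of at most -1. Median-ratio scaling gave 55 genes, 54 of them members, and 76 kept genes, against 74 and 63 without it. The median share of 0.49 became 0.46 with a share of at least 0.25, 0.62 with at least 0.5, 0.51 with a log2 ratio of at most -1, 0.51 with runs kept and 0.50 after quantile normalization. With 1 library other than glucose replicate 3 left out, the rule found 63 to 87 genes with a median share of 0.48 to 0.49, and 60 to 67 kept genes. The share cannot be formed without glucose replicate 3, so the dependence on that library was not examined. The kept genes numbered 103 with a share of at least 0.5 and 273 with a log2 ratio of at most -1.

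With the paired-end library in place of soybean oil replicate 2 the rule found 46 genes, 36 of them members, with a median share of 0.57. The limma fit then called 31 members, 37 kept genes, 240 genes at least 2-fold lower and 761 genes of any size, against 74, 63, 790 and 3210, and PaG_03756 had a log2 fold change of -2.16 (adjusted p 0.0811, against 0.0121). The cause was not tested. A pseudocount of 5 RPKM left 482 lower genes. Quantile normalization gave 575 lower and 513 higher genes, against 790 and 430. The stranded median of -3.41 became -3.12 without subtracting 1, -3.71 with a pseudocount of 0.1 RPKM and -2.55 with one of 5 RPKM. Leaving out 1 library gave log2 fold changes of -9.74 to -9.24 for PaG_03517 and -3.05 to -1.83 for PaG_03756.

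With the replicate number as a block, limma called 74 members and 787 genes lower. Deviations of same-numbered glucose and oil libraries from their group means correlated at -0.19, 0.23 and 0.05. Those of differently numbered libraries correlated at -0.25 to 0.21. With 3 libraries per medium these values cannot decide whether the numbers pair the samples.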
